A study of Mus musculus with 3 samples.

Results

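GLI3 binding was examined around 10 genes of the bone morphogenetic protein (BMP) pathway in the mouse forelimb bud. The genes were Bmp2, Bmp4, Bmp5, Bmp7, Nog, Chrd, Bmper, Smad6, Smad7 and Id1. A ChIP-seq peak was counted when its summit lay within 200 kb of an annotated mm10 transcription start site (TSS) of one of them, a rule that used position and no measured value. This took 91 of the 17149 listed peaks, and no peak was counted for more than 1 gene. The list was grouped at the outset as BMP ligands and extracellular antagonists, but Smad6 and Smad7 act inside the cell and Id1 is a nuclear target of the pathway, so the genes are described here by their own roles.

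Chromatin came from forelimb buds at embryonic day E10.5, staged at 32 to 35 somites, on a mixed strain background. The embryos carried a FLAG tag at the N terminus of GLI3, expressed from the endogenous Gli3 locus, while the genotype label reads wild type. There were 2 ChIP replicates and 1 input library, each from 2 pooled litters, amplified with 15 PCR cycles, and all 3 shared the age and the tag. Buds were dissociated whole with Liberase, so anterior and posterior cells, ectoderm and mesenchyme cannot be told apart. An N-terminal tag is present on both full-length GLI3 and its truncated repressor, which also cannot be told apart from the peaks. From blots of nuclear fractions, the study reported that nuclear GLI3 was almost entirely the repressor form, in anterior cells. It proposes that its GLI3 binding regions are probably bound by the repressor alone. The peak list holds no expression values, so the tissue label could not be checked against marker genes. The 1 peak list is recorded with the first ChIP replicate and has no column per replicate, and the study describes its GLI3 peaks as coming from both biological replicates. With 1 list and no values per replicate, no difference could be tested across samples, and the values below are descriptions. The study's methods state a minimum read depth per sample, and the exact depth of each library was not analysed here.

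BMPs are secreted ligands that bring type I and type II serine/threonine kinase receptors together, after which the type I receptor phosphorylates SMAD1, SMAD5 or SMAD9 and these enter the nucleus with SMAD4. Noggin and chordin bind ligands outside the cell and keep them from the receptors, BMPER binds ligands and chordin, and SMAD6 and SMAD7 block the signal inside the cell and are themselves induced by it. In the limb bud, BMP signalling limits the apical ectodermal ridge and takes part in digit patterning, interdigital cell death and cartilage formation. GLI3 is a zinc finger transcription factor of the Hedgehog (HH) pathway that is processed to a repressor where HH signal is low.

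A listed peak with a false discovery rate (FDR) under 0.05 is called a GLI3 binding region (GBR) here, the threshold the study used. Of the 91 peaks, 38 were GBRs (41.8%), beside 42.5% of all 17149 listed peaks. GBRs lay within 200 kb of 7 of the 10 genes, and Bmp4, Bmp5 and Bmper had listed peaks only. Of all 21854 protein-coding genes, 66.1% had a GBR within that distance, with a median of 1 and an interquartile range of 0 to 3. The intracellular inhibitors and the target Id1 held 24 GBRs of 38 listed peaks. The extracellular antagonists and modulator held 9 of 26, and the 4 ligands 5 of 27. Chrd had 8 of the 9, none of them nearest to Chrd. Id1 was the nearest protein-coding gene for 5 of its 10 GBRs, and Smad6 and Smad7 were for all of theirs.

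Matches to the GLI consensus GACCACCCA (TGGGTGGTC on the other strand), allowing 1 mismatch, were sought within 250 bp of each summit. The sequences below show the best-ranked GBR of each gene, and every GBR within 10 kb of a TSS, where these held a match and lay outside the Smad7 locus. Each has 30 bp to either side of the match, and the capitals mark the 9 bases matched. The Bmp7 sequence was added after its values were seen, because it held the exact word. All are from mm10 and are written 5′ to 3′ on the strand of the match. Peaks are named by their rank in the list of 17149, with rank 1 the best.
Bmp2 rank 632, chr2:133635726-133635794, plus strand: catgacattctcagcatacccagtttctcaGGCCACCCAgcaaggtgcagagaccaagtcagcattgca
Bmp7 rank 761, chr2:172888285-172888353, minus strand: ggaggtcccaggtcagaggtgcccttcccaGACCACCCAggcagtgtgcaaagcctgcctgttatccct
Chrd rank 533, chr16:20718005-20718073, plus strand: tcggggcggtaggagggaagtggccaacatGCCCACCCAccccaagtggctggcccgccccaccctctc
Smad6 rank 5495, chr9:64018577-64018645, plus strand: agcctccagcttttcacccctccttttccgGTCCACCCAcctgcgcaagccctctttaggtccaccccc
Smad6 rank 182, chr9:64058322-64058390, minus strand: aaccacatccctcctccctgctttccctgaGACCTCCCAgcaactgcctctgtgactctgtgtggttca
Id1 rank 3880, chr2:152737641-152737709, plus strand: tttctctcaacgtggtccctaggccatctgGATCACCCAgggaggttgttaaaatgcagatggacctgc
Id1 rank 307, chr2:152739674-152739742, plus strand: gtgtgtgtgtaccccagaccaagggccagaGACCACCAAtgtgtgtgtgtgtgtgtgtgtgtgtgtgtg
Id1 rank 133, chr2:152925665-152925733, plus strand: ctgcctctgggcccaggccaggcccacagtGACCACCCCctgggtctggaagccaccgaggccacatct

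Counting positions from 1 at the 5′ end of GACCACCCA, with the consensus base first, and taking the match nearest the summit where a GBR held 2, the match at the Bmp2 GBR carried A2G and that at the Chrd GBR A2C. The Smad6 matches carried A2T at rank 5495 and A5T at rank 182, and the Id1 matches carried C3T at rank 3880, C8A at rank 307 and A9C at rank 133. The match at the Smad6 GBR of rank 182 lay 11 bp from the summit and that at the Id1 GBR of rank 3880 lay 18 bp from it, and each of these GBRs held 1 further match that is not shown. Those at Id1 ranks 133 and 307 lay 28 bp and 236 bp from the summit. The distance was 57 bp at Bmp7, 138 bp at Bmp2 and 202 bp at Chrd.

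The GC-rich word GGCGCC, which reads the same on both strands, is known from BMP-responsive elements that bind SMADs, among them one upstream of Id1. The 2 sequences below, also from mm10, show it in capitals at the best-ranked GBR within 1 kb of the Id1 and Smad6 TSSs that held it. It lay 183 bp from the summit at Id1 and 16 bp from it at Smad6.
Id1 rank 5059, chr2:152735122-152735187, plus strand: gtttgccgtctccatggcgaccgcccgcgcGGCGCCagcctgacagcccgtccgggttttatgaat
Smad6 rank 526, chr9:64023026-64023091, plus strand: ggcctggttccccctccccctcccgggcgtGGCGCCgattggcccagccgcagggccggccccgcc

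The Smad6 promoter is shown because 3 GBRs lay around it. The 250 bases before the RefSeq start (GRCm38.p6) are given with the 21 bases centred on the summit of the GBR of rank 2244 in capitals. Neither a GLI match nor GGCGCC was found in this window. Most of 32851 RefSeq promoters of the same length also lacked each, with 5.79% holding a GLI match and 9.59% holding GGCGCC. The GBRs of ranks 2065 and 526 held GGCGCC within 250 bp of their summits.
Smad6 promoter, chr9:64022060-64022309, minus strand: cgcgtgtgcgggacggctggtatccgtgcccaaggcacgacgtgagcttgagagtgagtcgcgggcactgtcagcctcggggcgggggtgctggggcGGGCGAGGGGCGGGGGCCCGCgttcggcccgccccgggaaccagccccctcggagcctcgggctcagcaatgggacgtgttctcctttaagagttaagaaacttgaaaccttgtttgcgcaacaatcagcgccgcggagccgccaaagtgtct

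Smad6, the inhibitor that acts mainly on BMP receptors and their SMADs (chr9:63953076-64022059, minus strand), had 8 GBRs among 10 listed peaks. Smad6 was the nearest protein-coding gene to all 8. At least 8 GBRs lay within 200 kb of 5.13% of protein-coding genes. The GBR of best rank, 182 (chr9:64058150-64058899), was intergenic, 36.3 kb upstream of the TSS, with a log2 fold enrichment over input of 4.12 and an FDR listed as 0. Its −log10 Poisson p-value of 74.4 was the highest of the 38. Within 10 kb of the TSS lay 4 GBRs. One of rank 526 (chr9:64022650-64023249) lay 983 bp upstream at log2 3.67, one of rank 2244 lay 143 bp upstream at log2 2.96, and one of rank 2065 lay over the start, 2 bp into the 5′ UTR, at log2 3.0. The fourth GBR, of rank 5495 (chr9:64018400-64019249), was in an intron 3.48 kb downstream of the TSS at log2 2.47 and an FDR of 0.011402. Thus 3 GBRs lay at the start of Smad6, the strongest of them 983 bp upstream, and a weaker one lay farther into the gene. The other 3 GBRs were 2 in Smad6 introns, 41.4 kb and 62.0 kb from the TSS at log2 2.76 and 3.07, and 1 in an intron of 1110036E04Rik, 28.1 kb upstream at log2 2.60. The remaining 2 listed peaks were not GBRs and lay nearest to another gene, Lctl, in 1 case.

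Smad7, which inhibits both BMP and TGF-beta receptors (chr18:75367529-75395935, plus strand), had 6 GBRs among 12 listed peaks, and 10.8% of protein-coding genes had at least 6. Smad7 was again the nearest protein-coding gene to all of them. The longest of the 38 GBRs, 1800 bp long (chr18:75366700-75368499), lay over the start of Smad7 with its summit 672 bp upstream of the nearest TSS, at log2 3.70 and an FDR listed as 0. It held no GLI match. The second GBR within 10 kb, of rank 7044 (chr18:75370100-75370299), lay in an intron 316 bp downstream of the start of another annotated transcript and just passed the threshold, with log2 2.33 and an FDR of 0.037408. Its match, GGCCACCCA, carried A2G and lay 156 bp from the summit. The other 4 were 70.6 kb to 159 kb upstream, at log2 2.39 to 2.80, in introns of 2010010A06Rik (1 GBR) and Dym (3 GBRs). Around the same TSSs, 4 listed peaks were not GBRs, with log2 of 1.78 to 2.27. No sequence of this locus is printed.

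Id1, a helix-loop-helix protein without a DNA binding domain and a direct BMP target (chr2:152736251-152737410, plus strand), had the most GBRs of the 10 genes, 10 of 16 listed peaks. At least 10 lay near 2.43% of protein-coding genes. The region is gene-rich, with the TSSs of 15 other protein-coding genes within 200 kb, and Id1 was the nearest for 5 of the 10. These 5 were the ones within 10 kb. Upstream lay ranks 6805 at 134 bp, 5059 at 914 bp and 5225 at 6.42 kb, with log2 of 2.35, 2.51 and 2.5. Downstream, beyond the end of the short gene, lay ranks 3880 at 1.41 kb with log2 2.65 and 307 at 3.22 kb with log2 3.91. The latter (chr2:152738600-152740149) spanned 1550 bp. The strongest of the 5 was therefore 3′ of Id1, while the peak nearest its TSS was close to the threshold, at an FDR of 0.037408. A listed peak in the coding exon, 726 bp from the TSS, had log2 2.08 and an FDR of 0.250768.

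The 5 other GBRs around Id1 lay nearest to other genes. The one of rank 133 (chr2:152925500-152926049), the best of the 91 peaks, had log2 4.28 and lay 189 kb downstream of Id1 but 7481 bp from Foxs1, a forkhead factor gene. It was also the GBR counted closest to the 200 kb limit. Another, annotated as UTR of Mylk2, was nearest to Foxs1 as well, with log2 2.65. Ranks 295 and 1827 were annotated as UTR of H13, 29999 bp and 28454 bp upstream of Id1, with log2 of 3.93 and 3.06 and nearest to Mcts2. Rank 325 lay at the promoter of Bcl2l1, which encodes an inhibitor of apoptosis, 95.0 kb downstream of Id1 with log2 3.89. Which gene any of these regions acts on was not measured.

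**Figure D1:**
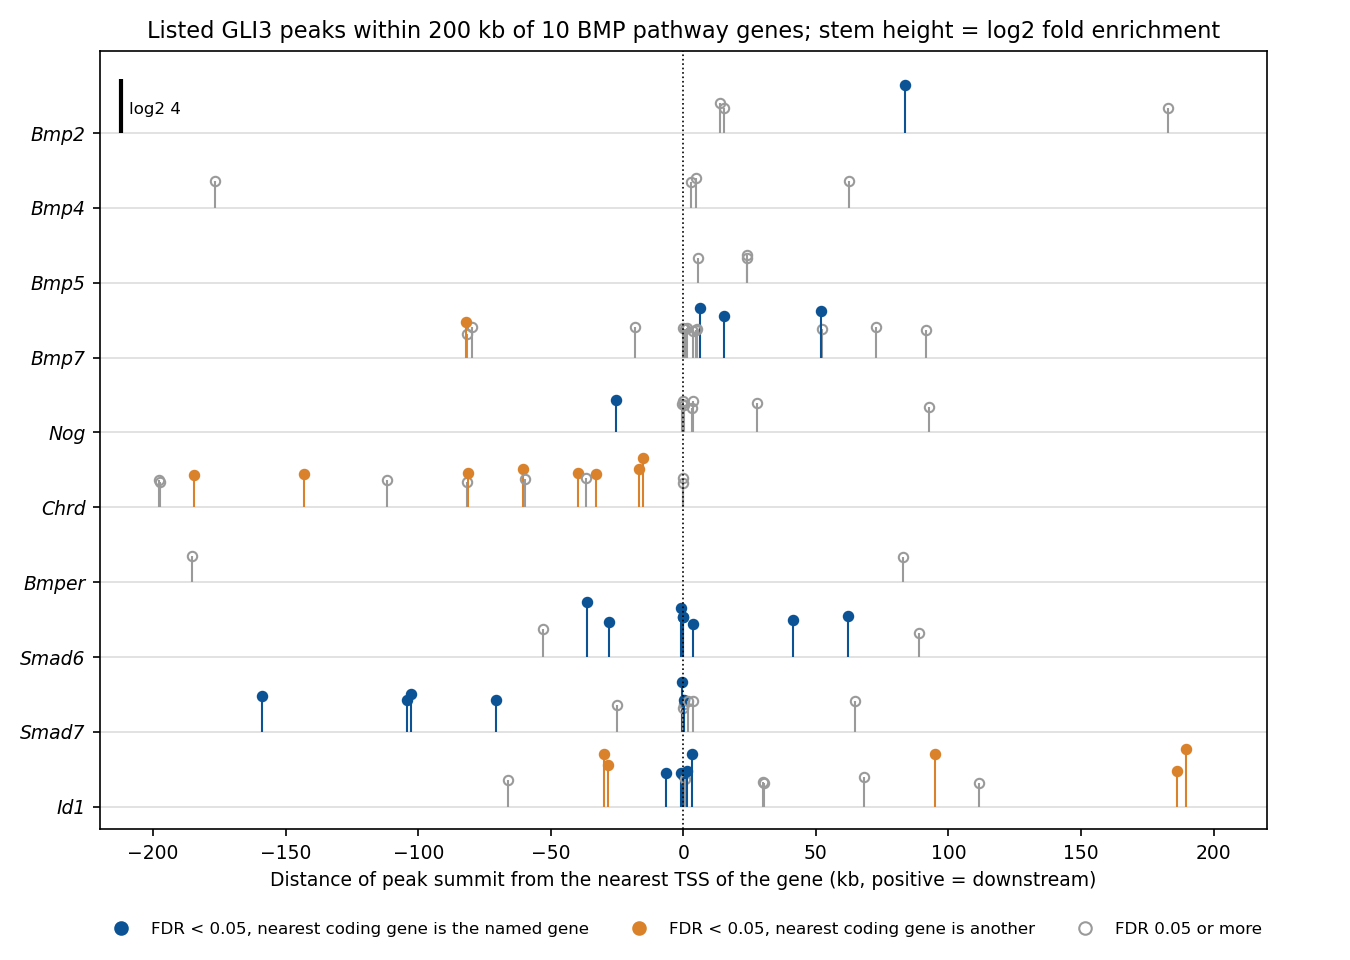
Map of the peaks by gene, with the distance of each summit from the nearest TSS in kb on the horizontal axis, drawn in the direction of transcription, and the 10 genes as rows. Stem height gives the log2 fold enrichment, filled points stand for the 38 GBRs (blue where the named gene is the nearest protein-coding gene, orange where another is) and open points for the 53 other listed peaks, and all filled points of Chrd are orange while Bmp4, Bmp5 and Bmper show open points only.

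Of the ligands, Bmp7 (chr2:172868012-172940321, minus strand), which is expressed in limb mesenchyme and ridge, had 4 GBRs among 16 listed peaks. At least 4 lay near 23.1% of protein-coding genes. Of these, 3 were in Bmp7 introns with an FDR listed as 0. The strongest, rank 482 (chr2:172933350-172934649), was 1300 bp long, lay 6.28 kb from the TSS and had log2 3.71. It held no GLI match. Rank 761 (chr2:172888100-172888499), 52.1 kb into the gene with log2 3.49, held the exact consensus. Rank 1684, 15.2 kb into the gene with log2 3.09, held no match. The fourth was at the Rbm38 promoter, 82.0 kb upstream, with log2 2.62. The Bmp7 TSS itself had listed peaks that were not GBRs, 231 bp upstream with log2 2.2 and 509 bp downstream with log2 2.09. A further 2 GBRs lay just past the 200 kb limit, 200.9 kb and 211.8 kb from Bmp7 with log2 2.93 and 3.54 and nearest to Tfap2c, so the count for Bmp7 depends on where that limit stands.

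Bmp2 (chr2:133552159-133562885, plus strand), a ligand of the ridge and mesenchyme, had a single GBR among 4 listed peaks. It was of rank 632 (chr2:133635450-133635899), intergenic, 83.5 kb downstream of the TSS, with log2 3.59 and an FDR listed as 0. No protein-coding TSS of another gene lay within 200 kb of Bmp2. The other 3 listed peaks had log2 of 1.87 to 2.23.

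Bmp4 (chr14:46383520-46390669, minus strand) and Bmp5 (chr9:75775364-75900310, plus strand), ligands with roles in early limb outgrowth and in skeletal form, had no GBR within 200 kb. The 4 listed peaks of Bmp4 had log2 of 1.96 to 2.23, and the strongest lay in an intron 4918 bp from the TSS with an FDR of 0.132755. The 3 listed peaks of Bmp5, 5593 bp to 24.2 kb downstream of the TSS, had log2 of 1.83 to 2.08. The one 24.2 kb downstream, with an FDR of 0.250768, held a GLI match. No GBR here means that no listed peak passed the threshold, not that GLI3 was absent.

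Noggin, encoded by Nog (chr11:89300638-89302332, minus strand), had 1 GBR among 8 listed peaks. This GBR, rank 6084 (chr11:89327550-89327849), lay 25.3 kb upstream with log2 2.42, an FDR of 0.020787 and no GLI match. Within 10 kb of the TSS lay 5 listed peaks and no GBR. The closest to the threshold were 305 bp upstream and 3675 bp downstream, both with log2 2.30 and an FDR of 0.070419. The others had log2 of 1.82 to 2.12. Nog thus had several listed peaks around its start, the strongest of them just outside the threshold.

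Chordin, encoded by Chrd (chr16:20733127-20742384, plus strand), had 8 GBRs among 16 listed peaks, as many as Smad6, yet none was nearest to Chrd. All 8 lay upstream, 15.3 kb to 184 kb away, and 7 were at the promoters of other genes, among the 14 protein-coding neighbours within 200 kb. The best, rank 533 (chr16:20717600-20718149), lay in the UTR of Polr2h, which encodes an RNA polymerase subunit, 7 bp from its TSS with log2 3.67. The others were at Clcn2 (log2 2.82), Eif4g1 (2.87), Fam131a (2.58, and 2.46 in an intron), Psmd2 (2.56), Vwa5b2 (2.5) and Abcf3 (2.37). Peaks at the Chrd TSS were not GBRs, with log2 2.17 at 195 bp upstream and 1.84 at 23 bp downstream. Bmper (chr9:23223076-23485200, plus strand) had 2 listed peaks, 185 kb upstream and 82.7 kb downstream of its TSS, with log2 1.94 and 1.87 and FDR of 0.727328 and 1.

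Within 10 kb of a TSS, 4 of the 10 genes had a GBR, namely Smad6, Smad7, Id1 and Bmp7, beside 21.3% of protein-coding genes. Listed peaks lay within 10 kb of 8 genes, the exceptions being Bmp2 and Bmper.

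**Figure D2:**
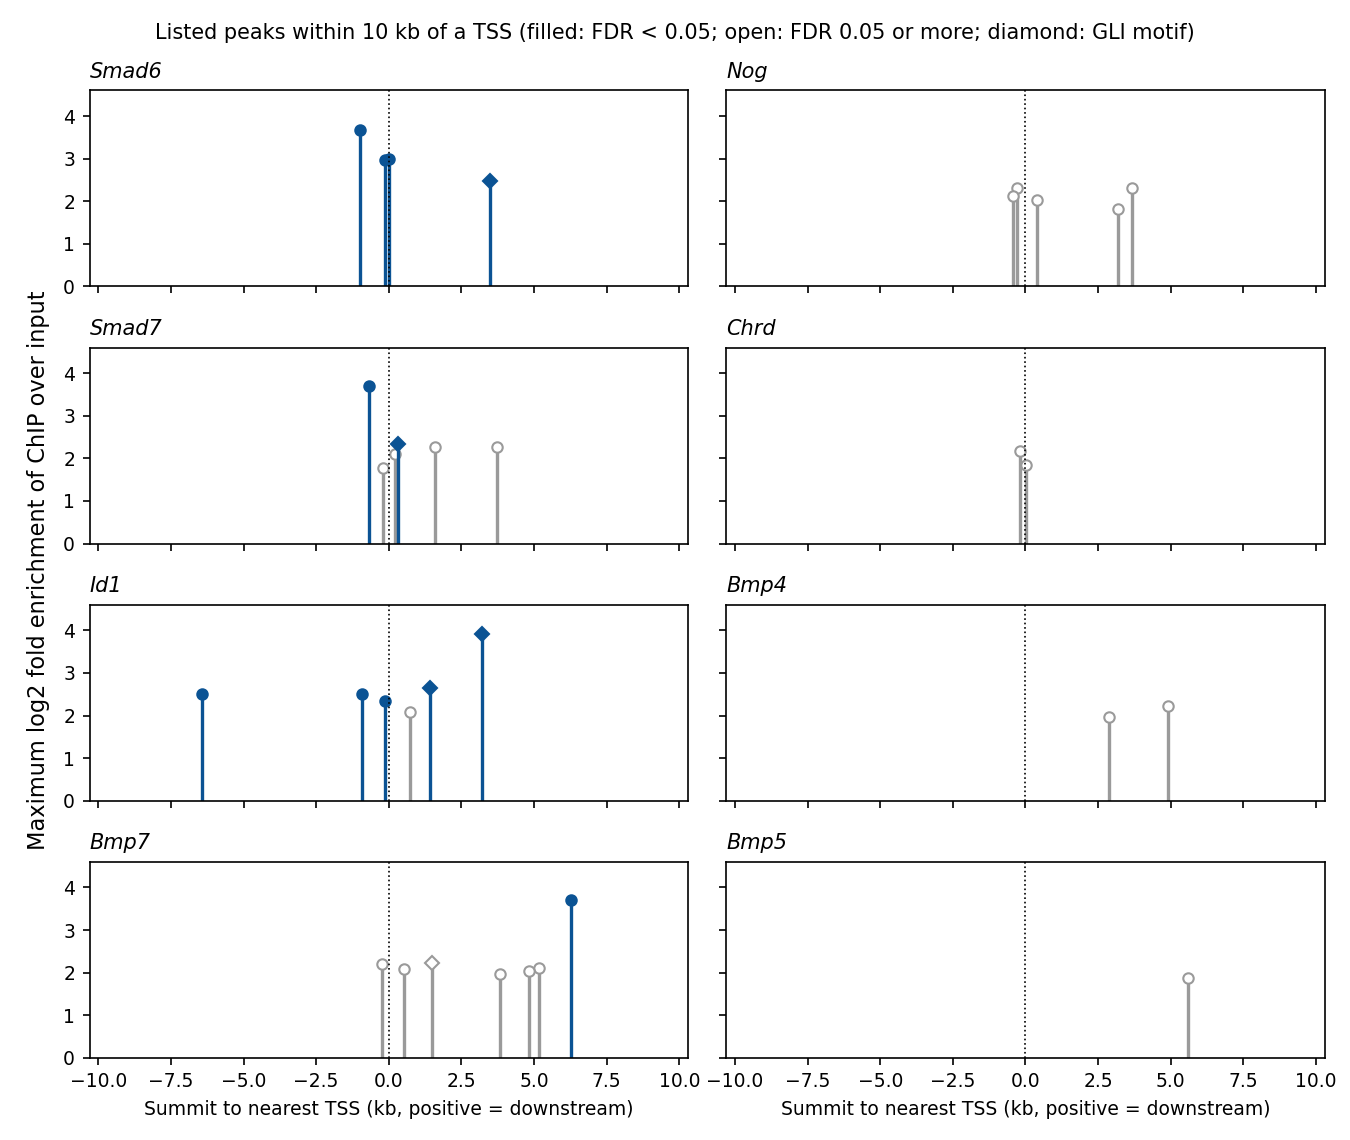
Listed peaks within 10 kb of a TSS, with the distance of the summit from the TSS in kb on the horizontal axis and the log2 fold enrichment over input on the vertical axis, with GBRs filled, other peaks open and diamonds for peaks with a GLI match. Smad6, Smad7, Id1 and Bmp7 have GBRs here, while those of Nog, Chrd, Bmp4 and Bmp5 did not pass the threshold.

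Over the 38 GBRs the log2 fold enrichment ranged from 2.33 to 4.28 with a median of 2.78 (order-statistic 95% interval 2.58 to 3.07), beside 2.69 for the other 7244 GBRs, which lies inside that interval. Median length was 400 bp in both. Of the 91 peaks, 11 (12.1%) were among the 1000 of best rank, beside 5.83% of all listed peaks. Id1 had 4 of them, Smad6 and Bmp7 had 2 each, and Bmp2, Chrd and Smad7 had 1 each. The 53 peaks that were not GBRs had a median log2 of 2.03, beside 2.02 for the rest of the list. The threshold fell at log2 2.31, and 8 of the 53 had an FDR of 0.0704 to 0.1. These belonged to Bmp7 (3 peaks), Nog (2 peaks) and Smad7 (3 peaks).

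**Figure D3:**
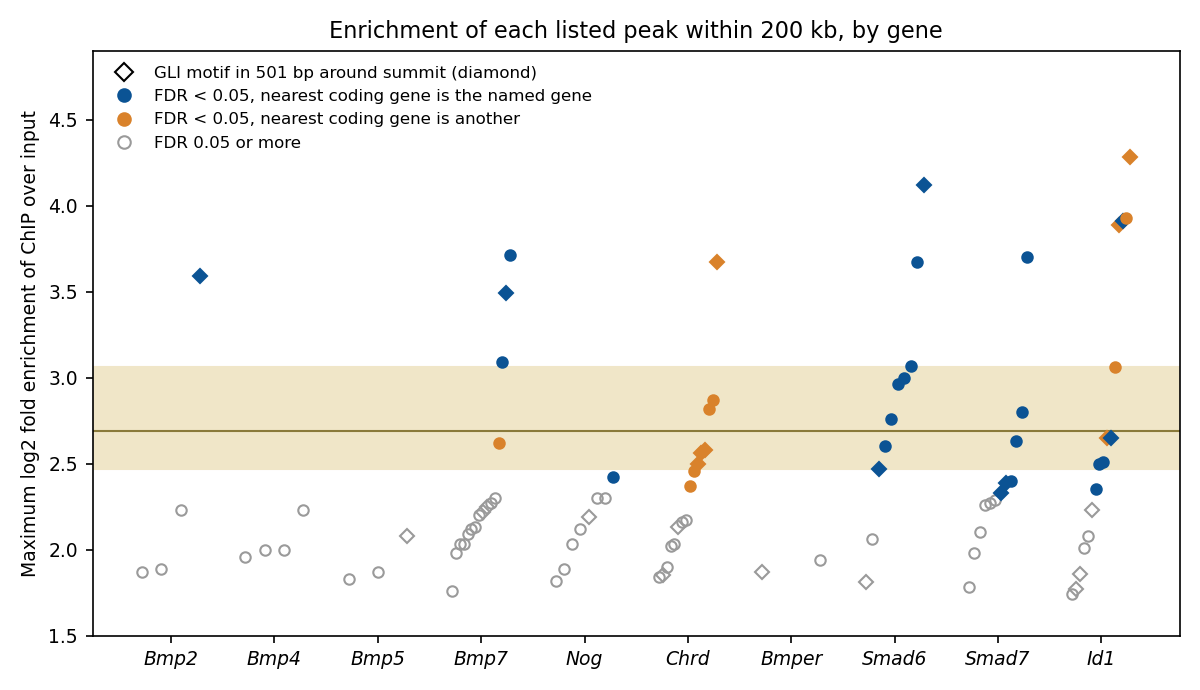
Log2 fold enrichment over input of each peak on the vertical axis, by gene, with GBRs filled (blue or orange for the named gene or another as the nearest), other listed peaks open and diamonds for a GLI match. The line and band give the median (2.69) and interquartile range (2.47 to 3.06) of the other 7244 GBRs, and Id1 and Smad6 hold the points above log2 4.

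The 38 GBRs were mostly away from promoters. Introns held 19, intergenic sequence 11, UTRs 7 and a coding exon 1, and 24 lay upstream of the gene's TSS and 14 downstream. By distance, 12 were within 10 kb, 19 at 10 to 100 kb and 7 farther. The promoter window, 2 kb before to 1 kb after a protein-coding TSS, took 16 (42.1%, Wilson 95% interval 27.9 to 57.8), beside 52.6% of all GBRs. Of these 16, 9 belonged to neighbouring genes. For 24 of the 38 the nearest protein-coding TSS was that of one of the 10 genes. Chrd held 8 and Id1 5 of the other 14.

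A GLI match was found at 15 of the 38 GBRs (39.5%, Wilson interval 25.6 to 55.3), beside 20.8% of all 7282 GBRs. The interval covers counting error only, and GBRs near the same gene are not independent. Where one of the 10 genes was the nearest protein-coding gene the share was 8 of 24 (33.3%, 18 to 53.3), an interval that includes the share over all GBRs, and where another gene was nearest it was 7 of 14 (50%, 26.8 to 73.2). The exact word was found at 1 of 38 (2.63%), at Bmp7, beside 2.84%. These 15 GBRs held 19 matches, 4 of them holding 2 each, and by the match nearest the summit there were 11 different words, of which GCCCACCCA occurred at 3 GBRs and GGCCACCCA and GACCACCAA at 2 each. The nearest match lay within 50 bp of the summit in 4 GBRs and within 100 bp in 8. By gene, Id1 had 5 GBRs with a match, Chrd 4, Smad6 and Smad7 2 each, and Bmp2 and Bmp7 1 each. The strong peaks over the Smad7 TSS, in the Bmp7 intron and at the Smad6 promoter held none, so high enrichment was also seen without a match. Among the 53 other peaks, 11 (20.8%) held a match, beside 15.6% of the 9809 other listed peaks that were not GBRs.

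GGCGCC was found at 12 of the 38 (31.6%, Wilson interval 19.1 to 47.5), beside 27.4% of all GBRs. Outside promoters it was at 6 of 22 (27.3%, 13.2 to 48.2), beside 9.97% of the other distal GBRs, and within promoters at 6 of 16 (37.5%), beside 43.1%. Distal GBRs of the 10 genes had a median GC content of 55.6%, beside 50.1% for the other distal GBRs, and the part of GC content in the share with the word was not tested.

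The wider pathway was counted in the same way over 36 further genes. Of these, 27 (75%) had a GBR within 200 kb and 10 (27.8%) within 10 kb, beside 66.1% and 21.3% of all protein-coding genes. Summed over genes, with a peak shared by neighbouring genes counted for each, they held 78 GBRs among 174 listed peaks (44.8%). Over all listed peaks, each counted once, the share was 42.5%. By role, a GBR lay within 200 kb of 3 of 3 other Id genes, 4 of 4 receptor-associated SMAD genes (counting Smad4) and 5 of 6 receptors. The counts were 11 of 16 for extracellular and membrane modulators and 4 of 7 for ligands. Within 10 kb, in the same order, the numbers of genes were 2, 0, 3, 4 and 1. None of the 4 SMAD genes was the nearest protein-coding gene to any of its GBRs.

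Id3 had 11 GBRs, 7 of them within 10 kb, and its best, rank 282, lay 4510 bp downstream of the TSS with log2 3.95. Id2 had 7, all within 10 kb, and its best, rank 215, lay 1532 bp upstream with log2 4.07. At least as many lay near 1.66% and 7.27% of protein-coding genes. Id4 had a single GBR, 33266 bp upstream with log2 2.68, and none within 10 kb, unlike Id1, Id2 and Id3, with 5, 7 and 7. Bmpr2, a type II receptor gene, had its best GBR, rank 227, 32 bp from its TSS with log2 4.04. The antagonist gene Grem1, which links Shh signal to the ridge in the limb, had 6 GBRs, a number reached by 10.8% of protein-coding genes, the best of rank 1872 with log2 3.05, 117659 bp downstream. The co-receptor gene Rgmb had 5, reached by 15.5%, the best of rank 2947 with log2 2.81, 121943 bp downstream and nearest to Chd1. The best GBRs near Smad5 (rank 145), Bmp1 (rank 159), Eng (rank 185) and Chrdl2 (rank 751), with log2 of 4.23, 4.17, 4.12 and 3.50, lay nearest to other genes, Tgfbi, Dmtn, Fam102a and Lipt2. At these 4 genes and Rgmb, as around Chrd, the best GBR was closer to a neighbour.

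**Figure D4:**
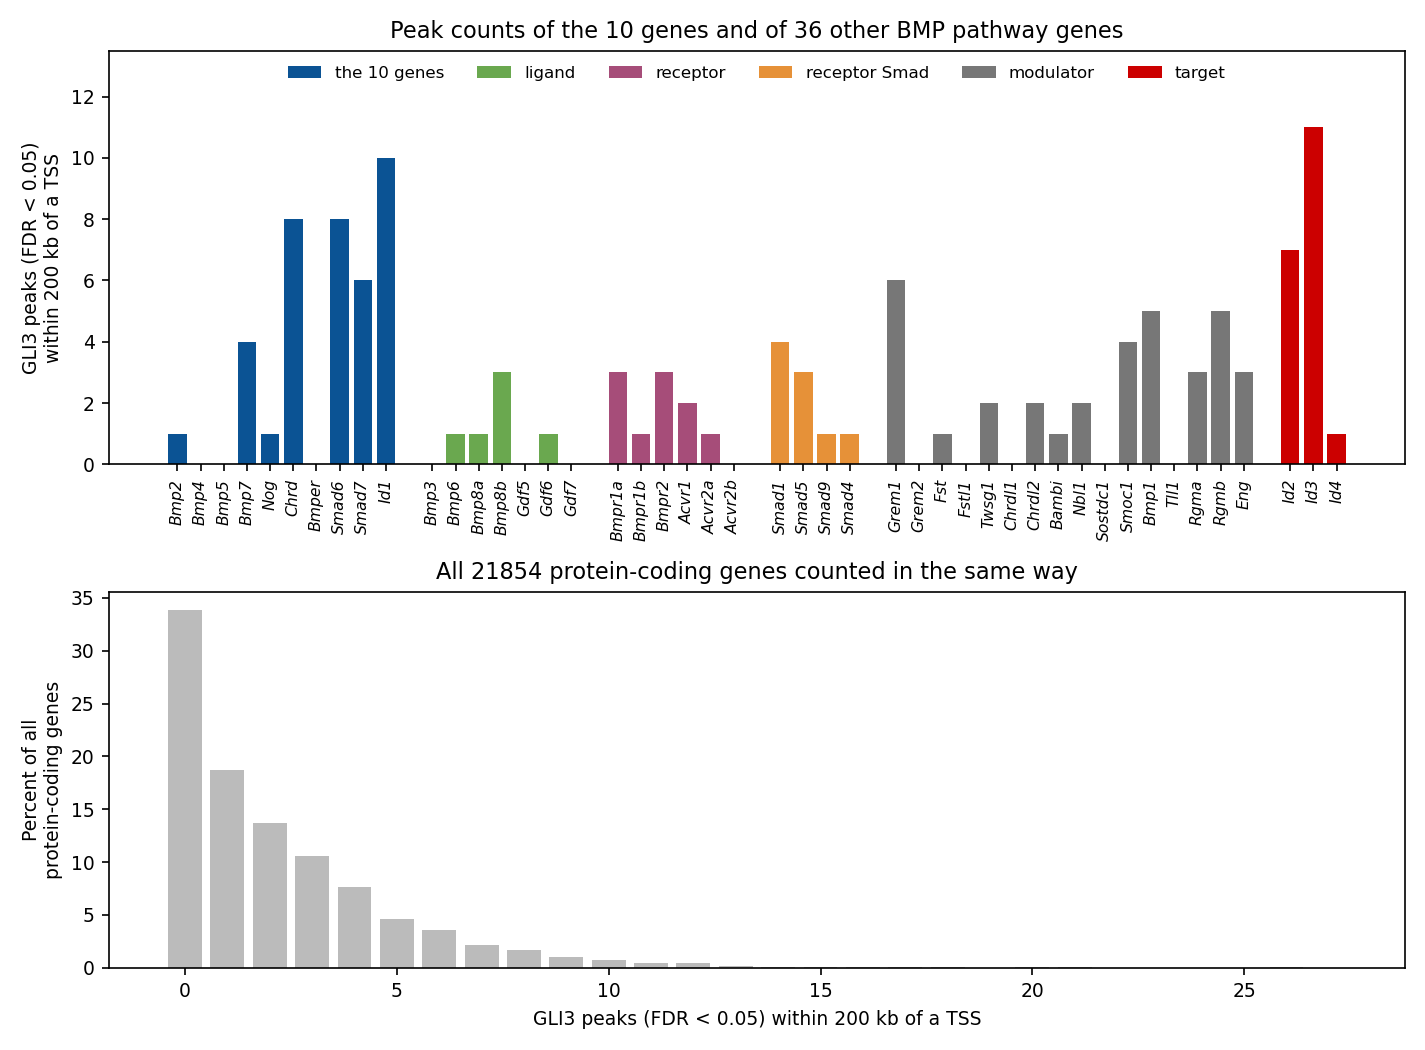
The upper bars give the number of GBRs within 200 kb of each of the 10 genes and the 36 other pathway genes, coloured by role, and the lower bars give the percent of all 21854 protein-coding genes with each number of GBRs. Id1 (10), Smad6 and Chrd (8 each) lie in the upper tail, where at least 8 GBRs occur near 5.13% of genes. All 8 of Smad6, 5 of the 10 of Id1 and none of Chrd had that gene as the nearest protein-coding gene.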

How the data were processed

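Per the submitters' processing notes reads were aligned to mm10 with Bowtie2 2.2.5, and per the study's methods peaks were called with CisGenome 2.1.0. The study describes the peaks as coming from both biological replicates, and the list is recorded with the first. The 1 peak list gives, as deposited by the authors, a rank score (the T statistic), an FDR (a q-value), the log2 fold enrichment, read here as ChIP over the input control, and −log10 of a Poisson p-value, capped at 100. The authors' values were used as given. Summits were compared with TSSs of the GENCODE M21 basic set on GRCm38.p6, and coordinates are printed as listed. Whether they count from 0 or 1 is not stated, which could shift them by 1 bp. Peak starts are multiples of 50, and 5 listed peaks lay on unplaced sequence. The study's methods state a minimum read depth per sample, exact library totals were not analysed here, and Wilson intervals cover counting error only.

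The 10 genes, the further pathway list and the settings were chosen with earlier results of these data known. The rule for peaks described singly took each gene's peak of best rank and every GBR within 10 kb. Other peaks, given to account for every GBR or listed peak of a gene, were added to these. Further pathway genes were named when they had a peak among the 1000 best or were among the 5 with the most GBRs, and Id4 was added after its values were seen, to complete the Id genes. No p-value was computed, since no replicate values were used. Counting and motif steps were tested on simulated data (Python 3.11.15, numpy 2.4.6, pandas 2.3.3, scipy 1.17.1, pysam 0.24.0). RefSeq promoter sequences were matched for Bmper, Smad6, Bmp5, Bmp4 and Chrd.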

Additional observations from a re-analysis of the deposited data

How the results depend on the processing

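Of 64 alternatives to 8 results, 12 of them chosen after seeing the data, 55 stayed within the counting error or within 1.5 times. With every listed peak kept the count under the threshold became 91, the median log2 fold enrichment 2.25 (2.23 over all peaks) and the count nearest to one of the 10 genes 62. A limit of 500 kb gave 166 listed peaks, 75 GBRs and 20 peaks among the 1000 best. The motif share fell to 2.63% with an exact match (2.84% of all GBRs) and 21.1% within 100 bp of the summit (11.6%). Against the TSS of any gene, coding or not, 13 GBRs were nearest to one of the 10. At an FDR under 0.01 there were 27 GBRs near 6 genes, without Nog. No paired analysis was possible because the 1 peak list holds no values per replicate, and for the same reason no replicate could be left out. A minimum depth per sample is stated in the methods, and the part of depth in weak or missing peaks was not tested.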

Other observations

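With the limit at 500 kb, GBRs appeared for the 3 genes that had none at 200 kb, a view chosen after their values were seen. Of all protein-coding genes, 83.2% had a GBR within that distance, with a median of 4, and 30.1% had at least 7. Bmp4 had 7 between 215 kb and 492 kb from its TSS, the best of rank 590 with log2 3.63, 328 kb upstream and nearest to Cdkn3. The next, rank 926, lay 215 kb upstream with log2 3.4. Ranks 2124 and 2195 lay 232 kb and 385 kb downstream with log2 2.98 and 2.96, and of the 7 only rank 2195 held a GLI match. The other 3 had log2 of 2.35 to 2.86. Bmper had 1, of rank 2426, 270 kb upstream with log2 2.91, a GLI match and Bmper as its nearest protein-coding gene. Bmp5 had 1, of rank 2704, 334 kb upstream at the promoter of Leo1 with log2 2.85.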
